A study of Homo sapiens with 36 samples.

Results

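CTCF peaks that HEK293T cells, a human embryonic kidney cell line, showed after CHD5 knockdown and in the control, and after none of the other knockdowns, formed 1901 genomic regions. They were found by joining overlapping or touching peaks of 6 peak lists on chromosomes 1 to 22 and X into 54382 merged regions. A region was taken when it held peaks of the siCHD5 and siNC lists and no peak of the siCHD3, siCHD4, siMBD2 or siMBD3 list. These siCHD5/siNC-only regions were 3.5 percent of all merged regions (exact Clopper-Pearson 95% interval 3.34 to 3.65) and 6.69% of the 28396 regions called in siCHD5 and siNC, which are called the shared regions below. They made up 6.07 percent of the 31342 regions of siCHD5 and 5.29 percent of the 35931 regions of siNC. The regions were chosen by the presence or absence of a call in the lists, which themselves fix these shares, so every fold, pileup and distance below describes them and none is a test.

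Cells received siRNA, which lowers the messenger RNA of its target. The targets were CHD3 (siCHD3), CHD4 (siCHD4), CHD5 (siCHD5), MBD2 (siMBD2) and MBD3 (siMBD3), and siNC was the control. Each condition had 3 immunoprecipitates with an antibody to CTCF and 3 inputs, 36 samples in all. Chromatin immunoprecipitation and sequencing recovers the DNA bound to a protein, and a peak is a stretch where the recovered fragments exceed the local background. Each list pooled the 3 replicates of its condition, so no value has a spread between replicates and no difference between conditions was tested. Intervals cover counting error only. The lists hold no expression, and neither the degree of each knockdown nor the identity of the line was checked here.

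CTCF is a zinc-finger protein that binds insulators, stops the loop-extruding cohesin complex and so marks many chromatin loop anchors and domain borders. NuRD is a complex that slides nucleosomes and removes acetyl groups from histones. CHD3, CHD4 and CHD5 are alternative ATP-dependent helicases of that complex, and CHD5 is known mainly from brain and testis. MBD2, which binds methylated CpG sites, and MBD3, which in mammals largely lacks that ability, are its alternative methyl-CpG-binding-domain subunits.

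Coverage set the lists apart, and it moved with the rule. A background, in fragments per bp, can be solved from each peak's fold and p, and its most common value grows with the depth of the library. That value was 0.374 in siMBD3, 0.445 in siCHD3, 0.640 in siMBD2 and 1.06 in siCHD4, while siCHD5 had 1.95 and siNC 2.96. The 1901 regions are thus those called in the 2 lists of highest coverage and in none of the 4 lists of lower coverage. The part of coverage in their choice cannot be told apart from that of the knockdowns, because each condition has 1 pooled list. How a summit would fare at the lower coverages is described further on.

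Among the 15 possible pairs of lists, siCHD5 with siNC held the most regions that no other list shared. The siCHD5/siNC pair held 1901, and the next was siCHD3 with siCHD4 (1678). The other pairs with siNC were siCHD3 (648), siMBD2 (423), siMBD3 (354) and siCHD4 (221). The siCHD4 list shared fewer such regions with siNC than siCHD3, siMBD2 or siMBD3 did. It was the shortest list on these chromosomes, with 25358 peaks. A further 902 regions were held by siCHD3, siCHD4 and siNC and by no other list. What set these counts apart was not tested. Of the shared regions, 3235 (11.4%) were held by exactly 1 of the other 4 lists, 4638 (16.3%) by 2, 6811 (24.0%) by 3 and 11811 (41.6%) by all 4. Counts with 1 further list were 1174 for siMBD2, 785 for siMBD3, 751 for siCHD3 and 525 for siCHD4. The siCHD4 list lacked 35.5 percent of the shared regions, siCHD3 30.3 percent, siMBD3 29 percent and siMBD2 22.8 percent. Dropping the requirement on siMBD2 raised the number of members to 3075, and dropping that on siCHD3, siCHD4 or siMBD3 gave 2652, 2426 and 2686. Lists cut to equal length, 25358 peaks each, left 554.

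**Figure D1:**
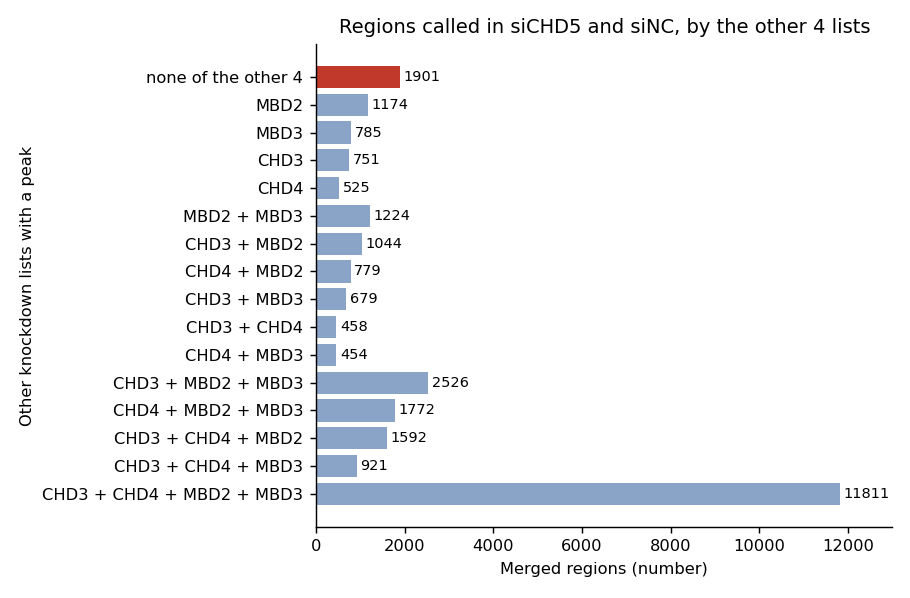
Number of merged regions (x axis) called in the siCHD5 and siNC lists, by which of the other 4 knockdown lists also held a peak (y axis), from none at the top to all 4 at the bottom. The red bar is the 1901 siCHD5/siNC-only regions, and the longest bar the 11811 regions of all 6 lists.

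The siCHD5/siNC-only regions were weak and narrow beside the shared regions. Their median fold enrichment at the summit, the authors' ratio of pileup to local background, was 5.35 in siCHD5 (order-statistic 95% interval 5.26 to 5.44, range 1.22 to 13.3) and 4.55 in siNC (4.48 to 4.62, range 1.26 to 14.4). The medians over the shared regions were 6.76 in siCHD5 and 5.52 in siNC, and over the regions of all 6 lists 7.57 and 6.10 for the same lists. Fold ranks peaks within a list only, and the median siCHD5/siNC-only region stood at percentile 28.6 of the siCHD5 list and 33.9 of the siNC list. All 1901 held exactly 1 peak of each list. The merged region had a median width of 281 bp, against 378 bp over the shared regions and 409 bp over those of all 6 lists. A merged region can widen with each list that adds a peak, so the rule itself bears on these widths. The siNC peak alone had a median width of 244 bp, against 318 bp over the shared regions and 352 bp over those of all 6 lists. Regions of siNC alone were weaker still in that list, with a median siNC fold of 4.06 and a width of 221 bp. Regions of siNC and only 1 of the other 4 lists had median siNC folds of 3.91 (with siCHD3), 4.27 (siCHD4), 4.54 (siMBD2) and 4.35 (siMBD3). Weakness was thus not particular to the siCHD5/siNC-only regions. The regions compared were chosen for lacking a siCHD5 call, so the choice bears on their folds.

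Weakness was a tendency and not a limit. A −log10 q of at least 5 was reached by 1694 members in siCHD5 (89.1%, background 97.1 percent of shared regions) and by 1713 in siNC (90.1%, background 98.4 percent). A −log10 q of at least 10 was reached by 924 in siCHD5 (48.6%, background 86.2 percent) and by 1072 in siNC (56.4%, background 90.8 percent). Both lists gave at least 10 for 658 of them (34.6%, against 82.0% of the shared regions). In the strongest 10% of the siCHD5 list by fold stood 30 members (1.58%, against 11.0% of the shared regions), and in that of the siNC list 45 (2.37%, against 12.2%). In both stood 4 members (0.210%, against 3.44%). The lower part of both lists, at or under the median fold, held 1075 members (56.5%), against 26.4% of the shared regions. The weakest calls lay just over the lists' smallest −log10 q of 1.31 in siCHD5 and 1.30 in siNC. They were chromosome 19 from 49993051 to 49993363, with a −log10 q of 1.39 in siCHD5 and 2.76 in siNC, and chromosome 1 from 145357761 to 145358203, with 2.06 in siCHD5 and 1.32 in siNC.

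Few fragments lay over these summits. The summit pileup, the number of fragments over the summit solved from fold and p, had a median of 24 in siCHD5 and 33 in siNC at the siCHD5/siNC-only regions. It was 50 in siCHD5 and 72 in siNC over the shared regions, and 70 and 101 for the same lists over the regions of all 6. The local background was low as well, with a median of 3.56 fragments per bp in siCHD5 and 6.40 in siNC, against 6.40 in siCHD5 and 12.1 in siNC over the shared regions. Background lay at the genome-wide level of the list for 226 members in siCHD5 (11.9%, against 3.52% of shared regions) and for 134 in siNC (7.05%, against 1.56%). Of the shared regions in the lowest quintile of siNC pileup (11 to 43 fragments), 1423 of 5680 were siCHD5/siNC-only (25.1%, interval 23.9 to 26.2). The share was 6.25% in the second quintile, 1.55% in the third, 0.511% in the fourth and 0.106% (6 regions of 5679) in the fifth. Quintiles of siNC fold gave a shallower slope, 14.1% in the lowest and 1.76% in the highest. The share thus fell more steeply over quintiles of fragment number than over quintiles of fold. Regions of siNC and only 1 of the other 4 lists had lower median siNC pileups than the siCHD5/siNC-only regions. These were 23 with siCHD3, 28 with siCHD4, 29 with siMBD2 and 29 with siMBD3. Such regions were chosen for lacking a siCHD5 call, so the choice bears on their pileups.

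**Figure D2:**
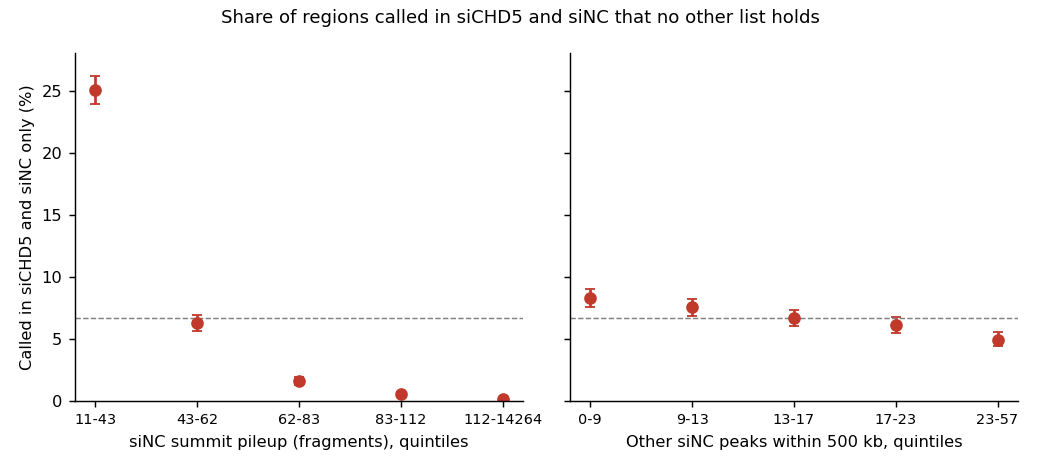
Share of shared regions that were siCHD5/siNC-only (y axis, percent, with exact 95% intervals) in quintiles of siNC summit pileup (left) and of the number of other siNC peaks within 500 kb (right). The dashed line is the share over all shared regions, 6.69%. The share was 25.1% in the lowest pileup quintile and 0.106% in the highest, and ranged from 8.29% to 4.93% over the density quintiles.

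The siCHD5 and siNC values of a region went together only loosely in fold and more closely in pileup. Across the 1901 regions, Pearson's r between the log2 folds of the lists was 0.31, and between the log2 pileups 0.80. Over the shared regions it was 0.43 for fold and 0.91 for pileup. These are correlations across regions, which share the lists' libraries and depth and are not replicates. The members were chosen by calls in these lists and are weaker, so the rule itself bears on their lower r. The siCHD5 fold was above the siNC fold at 1316 members (69.2%, interval 67.1 to 71.3), against a background of 72.2 percent of the shared regions. The median ratio of siCHD5 to siNC fold was 1.17 (range 0.326 to 4.31), against 1.23 over the shared regions. Pileups divided by the coverage of their list had a median ratio of siCHD5 to siNC of 1.11 (interval 1.09 to 1.12), against 1.06 over the shared regions. The siCHD5 fold was at least 2 times the siNC fold at 100 members (5.26%, against 7.75% of the shared regions). The siNC fold was at least 2 times the siCHD5 fold at 9 members (0.473%, against 1.04%).

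**Figure D3:**
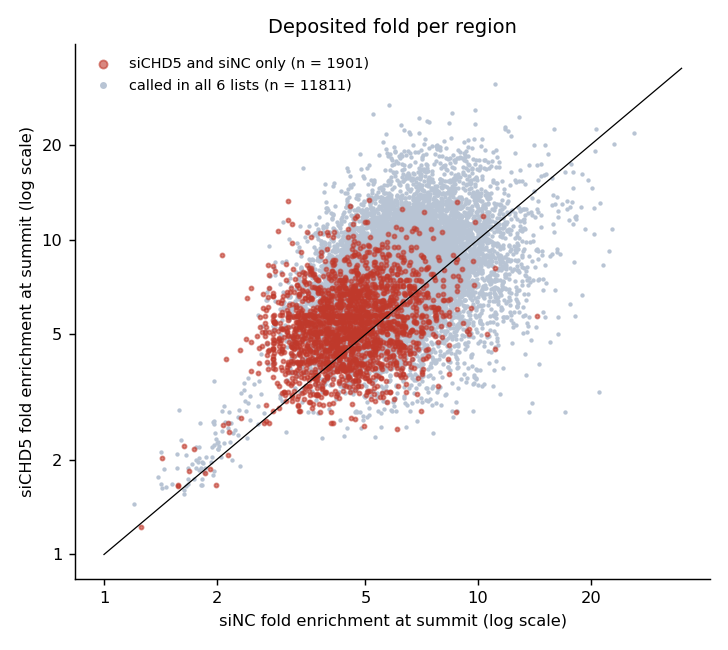
Deposited fold enrichment at the summit in siCHD5 (y axis, log scale) and siNC (x axis, log scale), 1 point per region. Red points are the 1901 siCHD5/siNC-only regions, grey points the 11811 regions of all 6 lists, and the line marks equal fold. Red points lie in the lower left of the grey cloud, with medians of 5.35 in siCHD5 and 4.55 in siNC, and few pass 10 in either list.

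Summits lay slightly farther apart than over the shared regions. The siCHD5 and siNC summits of a member lay a median of 13 bp apart (interval 12 to 14). The median was 8 bp over the shared regions, 6 bp over those of all 6 lists and 11 bp over those with exactly 1 other list. Summits were within 10 bp of each other at 807 members (42.5%, against 63.6% of the shared regions) and within 100 bp at 1884 (99.1%, against 98.7%). The peaks overlapped by a median of 208 bp, with median widths of 238 bp in siCHD5 and 244 bp in siNC. Several summits within a peak were found at 16 members (0.842%, against 2.50% of the shared regions). The widest member, chromosome 2 from 91596783 to 91597970, was 1188 bp wide and had summits 864 bp apart. Its folds were 2.21 in siCHD5 and 1.63 in siNC over backgrounds of 40.5 and 67.5 fragments per bp in the same lists. It belonged to 10 members whose siNC background was at least 10 times the genome-wide coverage (0.526%, against 3.26% of the shared regions). The next widest were chromosome 9 from 19464701 to 19465397 (697 bp) and chromosome 14 from 107280821 to 107281510 (690 bp), with summits 340 and 443 bp apart.

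A few members stood high in both lists. By the mean of the ranks in fold, chromosome 6 from 85395704 to 85396055 came first, with a fold of 11.8 in siCHD5 (−log10 q 27.4, pileup 34) and 10.3 in siNC (−log10 q 31.8, pileup 46). It was the 1 member with a fold over 10 in both lists, a level that 362 shared regions reached. Its nearest peak in any of the other 4 lists, from siMBD3, lay 42410 bp away. Chromosome 21 from 19757161 to 19757450 followed with folds of 13.2 in siCHD5 and 8.78 in siNC, and no peak of the other lists within 89381 bp. Chromosome 20 from 51400329 to 51400706 had folds of 11.4 in siCHD5 and 9.79 in siNC and stood 187371 bp from the nearest peak of another list. The distances on chromosomes 21 and 20 were above the members' upper quartile of 47030 bp, and that on chromosome 6 was below it. The nearest other siNC peak lay 42334 bp from the chromosome 6 region, 89400 bp from the chromosome 21 region and 35819 bp from the chromosome 20 region. Closer neighbours existed at chromosome 19 from 13541847 to 13542130, whose folds were 10.6 in siCHD5 and 8.01 in siNC, with siMBD3 2347 bp away, and at chromosome 1 from 47898105 to 47898387, whose folds were 10.8 in siCHD5 and 7.47 in siNC, with siCHD3 3802 bp away. The other 5 of the leading 10 lay on chromosome 15 from 40167239, chromosome X from 65329949, chromosome 6 from 148929678, and chromosome 2 from 119129131 and from 237085119. Their folds ranged from 8.54 to 12.2 in siCHD5 and from 7.18 to 9.72 in siNC.

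Members high in 1 list could be ordinary in the other. The highest siCHD5 fold, 13.3, was at chromosome 4 from 185666923 to 185667252, where siNC had 5.11, with pileups of 55 in siCHD5 and 64 in siNC. Next came chromosome 9 from 80103437 to 80103732, with 13.2 in siCHD5 and 3.10 in siNC, where the pileups were 42 in siCHD5 and 44 in siNC over backgrounds of 2.25 in siCHD5 and 13.5 in siNC. Divided by the coverage of its list, the siCHD5 pileup there was 1.45 times that of siNC. Both the pileup per coverage and the local background thus differed between the lists at that region. Chromosome X from 45660937 to 45661355 had folds of 12.8 in siCHD5 and 4.55 in siNC and a pileup of 44 in each, which divided by coverage was 1.52 times as high in siCHD5 as in siNC. Chromosome 5 from 113559646 to 113559988 had 12.5 in siCHD5 and 6.27 in siNC. The largest ratio of siCHD5 to siNC fold, 4.31, was at chromosome 1 from 161150485 to 161150760, with 8.92 in siCHD5 and 2.07 in siNC. That siNC call was near the threshold, with a −log10 q of 1.73, and a siCHD3 peak lay 342 bp away. Ratios of 3.72, 3.65 and 3.50 were found at chromosome 5 from 23139632, chromosome 3 from 14550368 and chromosome 17 from 53679155.

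At the siNC end, chromosome 13 from 108974582 to 108974903 led with a fold of 5.70 in siCHD5 and 14.4 in siNC, where it ranked 90th. Its pileups were 27 in siCHD5 and 56 in siNC. Chromosome 20 from 3676867 to 3677204 had 8.12 in siCHD5 and 11.1 in siNC with coinciding summits (0 bp apart), and chromosome 20 from 6159241 to 6159551 had 4.48 in siCHD5 and 11.1 in siNC. Chromosome 18 from 9612238 to 9612604 had 5.02 in siCHD5 and 10.5 in siNC. These regions kept a siCHD5 call at a lower rank, between 8470 and 26823 of 31451. The lowest ratio, 0.326, was at chromosome 7 from 154792443 to 154792888, with folds of 2.84 in siCHD5 and 8.72 in siNC and a −log10 q of 2.22 in siCHD5. Next were the chromosome 13 region (0.396) and the chromosome 20 region from 6159241 (0.404), then chromosome 14 from 37720874 (0.406) and chromosome 10 from 52548800 (0.411).

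At the coverage of each of the other 4 lists, a siCHD5/siNC-only summit had a lower chance of a call than a summit of all 6 lists. Each pileup was thinned to the coverage of another list, and the chance of still reaching that list's smallest −log10 p was computed. From the siCHD5 pileups the median chance was 97.5% for siCHD4, 76.0% for siMBD2, 58.4% for siCHD3 and 45.7% for siMBD3. From the siNC pileups it was 84.7% for siCHD4, 55.5% for siMBD2, 41.0% for siCHD3 and 30.0% for siMBD3. For regions of all 6 lists, the lowest of these medians was 97.4% from siCHD5 and 91.6% from siNC, both for siMBD3. Regions of all 6 lists were chosen for their calls in these lists, so the rule itself bears on this contrast. Regions called in siNC and only siCHD4 had a median chance from siNC of 72.8% at the siCHD4 coverage. Likewise it was 48.8% for siMBD2, 22.7% for siCHD3 and 23.2% for siMBD3. These medians were below those of the siCHD5/siNC-only regions. Such regions were chosen for lacking a call in siCHD5, the list next in coverage after siNC. The rule therefore bears on this contrast too. A low chance was thus not particular to the siCHD5/siNC-only regions. For the siCHD5/siNC-only regions the chance was lowest at the coverages of siMBD3 and siCHD3. At the siCHD4 coverage, 1589 members (83.6%, interval 81.8 to 85.2) had a chance of at least 50% from both lists, against 96.8% of the shared regions. For siMBD2 the number was 947 (49.8%, against 87.7% of the shared regions), for siCHD3 519 (27.3%, against 78.4%) and for siMBD3 240 (12.6%, against 67.8%). The chance holds no variation between libraries, and calls in siCHD5 and siNC picked these pileups, so a gap between it and the missing calls is not a measured loss of CTCF.

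**Figure D4:**
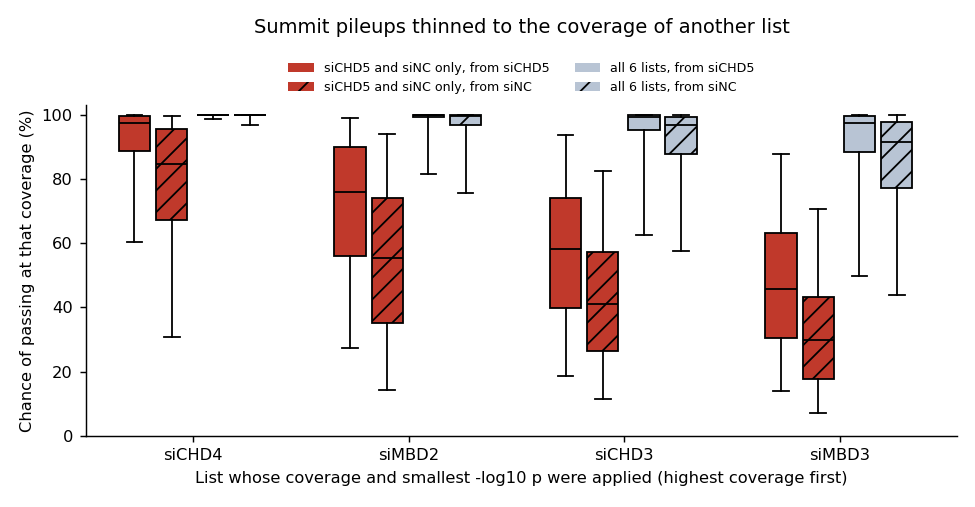
Chance, in percent, that a summit pileup thinned to the coverage of another list reaches that list's smallest −log10 p, for the 4 lists that lack the members, in order of coverage. Boxes span the middle quartiles with the median, and whiskers the 5th to 95th percentiles. Red boxes are the 1901 siCHD5/siNC-only regions and grey boxes the 11811 regions of all 6 lists, plain from siCHD5 and hatched from siNC pileups. For the red boxes the medians are highest for siCHD4 (97.5% and 84.7%) and lowest for siMBD3 (45.7% and 30.0%).

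A small group combined high chances with no call. In 234 members (12.3%, against 67.6% of the shared regions) the chance was at least 50% at all 4 coverages from both lists. It was under 50% at all 4 from both lists in 26 members (1.37%, against 0.236% of the shared regions). The highest smallest chance was at chromosome 1 from 101072041 to 101072414, with pileups of 66 in siCHD5 and 105 in siNC and folds of 6.32 and 6.97 in the same lists. Its chance at the siMBD3 coverage was 95.3% from siCHD5 and 96.3% from siNC, and the nearest peak of the other 4 lists was 62466 bp away. Chromosome 11 from 13231913 to 13232218 (pileups 57 in siCHD5 and 81 in siNC), chromosome 1 from 169519565 to 169519896 (58 and 104 for the same lists) and chromosome 12 from 6532707 to 6533010 (78 and 117) followed. Chromosome 1 from 175450279 to 175450621 completed the leading 5, with folds of 7.61 in siCHD5 and 7.63 in siNC. In these 5 regions the siCHD5 and siNC folds were close, with ratios of 0.815 to 1.01. The regions were picked for high chances from the pileups of both lists, so this closeness is not a separate result.

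The rule keeps peaks of the other 4 lists out of the members, and the nearest one lay a median of 19036 bp away (interval 17095 to 20098). For regions of siCHD5 alone the nearest peak of those 4 lists was a median of 16032 bp away, and for regions of siNC alone 18708.5 bp. Among the siCHD5/siNC-only regions, 83 members (4.37%) had one within 1 kb. Within 10 kb the number was 653 (34.4%), and 175 members (9.21%) had none within 100 kb. For comparison, another siNC peak lay within 10 kb of 592 members (31.1%, against 34.5% of the shared regions). No other siNC peak lay within 100 kb of 209 members (11.0%, against 8.06% of the shared regions). By list, the median distance was 27800 bp to siCHD3, 32653 bp to siMBD3, 33445 bp to siMBD2 and 36985 bp to siCHD4. These lists differed in length, with 34319 peaks in siCHD3, 25848 in siMBD3, 26087 in siMBD2 and 25358 in siCHD4. Just inside the rule were chromosome 4 from 77968283 to 77968498, with a siCHD3 peak 131 bp away, chromosome 20 from 30101936 to 30102168, with siCHD3 133 bp away, and chromosome 8 from 144313699 to 144314021, with siMBD3 139 bp away. Just outside it were the 3235 regions with a peak of exactly 1 further list, with a median siNC fold of 4.80. Highest in siNC fold among them was chromosome 2 from 75468876 to 75469217 (also in siCHD3, folds 6.63 in siCHD5 and 14.0 in siNC). Next was chromosome 2 from 138224837 to 138225253 (also in siCHD4, 8.93 in siCHD5 and 12.6 in siNC). Then came chromosome 4 from 133254090 to 133254485 (also in siMBD3, 7.53 in siCHD5 and 12.2 in siNC).

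Members were spread along the chromosomes, and their share was somewhat higher where peaks were sparse. A member had a median of 14 other siNC peaks within 500 kb, against 15 over the shared regions and 16 over regions of all 6 lists. In the sparsest quintile of shared regions (0 to 9 other peaks) 8.29% were siCHD5/siNC-only (interval 7.59 to 9.04), and in the densest (23 to 57) 4.93% (4.38 to 5.53). The median siNC pileup of these quintiles was 61 in the sparsest and 80 in the densest. Within the lowest quintile of pileup the shares were 25.7% (381 of 1480, interval 23.5 to 28.1) in the sparsest surroundings and 204 of 973 (interval 18.4 to 23.7) in the densest. Within the second quintile they were 5.39% (interval 4.26 to 6.71) and 5.57% (4.20 to 7.22) in the same order. Within the third they were 0.744% (0.341 to 1.41) and 1.42% (0.796 to 2.33). The fourth had 0.631% (0.232 to 1.37) and 0.351% (0.0956 to 0.895), and the fifth 0% (0 to 0.568) and 0.257% (0.0701 to 0.657). The intervals of each pair overlap, so the direction within quintiles of pileup was not resolved. The nearest region of all 6 lists was a median of 73915 bp away, against 61174.5 bp for the shared regions and 82519 bp for those with exactly 1 other list.

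After a siCHD5/siNC-only region, the next shared region along the chromosome was one too in 144 of 1901 cases (7.57%, interval 6.43 to 8.86), and after any other shared region in 6.64% (6.34 to 6.94). The intervals overlap. Members without an adjacent member numbered 1630, and runs reached 2 in 111 cases, 3 in 15 and 4 in 1. Within 10 kb of another member lay 53 of them. The 3 stretches of at most 1 Mb with the most members held 6 each. On chromosome 2 from 108449822 to 109214130, 6 of 13 shared regions were siCHD5/siNC-only, with folds of 4.62 to 8.33 in siCHD5 and 4.39 to 8.36 in siNC. On chromosome 5 from 139738489 to 140710069 it was 6 of 20, with folds of 4.68 to 10.2 in siCHD5 and 3.71 to 6.19 in siNC. On chromosome 16 from 80858759 to 81657379 it was 6 of 15, with folds of 5.20 to 10.2 in siCHD5 and 3.45 to 9.04 in siNC. Each stretch also held regions called in all 6 lists, 2 on chromosome 2 and 4 on each of the others, so these were not blocks without calls in the other lists.

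The share varied between chromosomes, and the differences were not tested. On chromosome 13, 68 of 643 shared regions were siCHD5/siNC-only (10.6%, interval 8.31 to 13.2), on chromosome 18, 53 of 505 (10.5%, 7.96 to 13.5), and on chromosome 19, 28 of 947 (2.96%, 1.97 to 4.25). Chromosome 2 had 174 of 2203 (7.90%, 6.81 to 9.10). For the other 19 of the 23 chromosomes the interval held the share over all chromosomes, 6.69%. The intervals were not adjusted for the 23 chromosomes looked at, so some could miss that share by counting error alone. That of chromosome 2 missed it narrowly. The most members lay on chromosomes 2 (174) and 1 (163), which also hold many shared regions (2203 and 2796). The median siNC pileup was 53 on chromosome 18, 62 on chromosome 13 and 70 on chromosome 19, against 72 on all. Giving each chromosome the all-chromosome share of each pileup quintile yields 10.6% for chromosome 18, close to the 10.5% seen. It yields 8.39% for chromosome 13, which lies within its interval. It lies outside the interval for 4 chromosomes, with 6.53% on chromosome 19 and 7.52% on chromosome 11 above it (2.96% and 6.04% seen), and 6.68% on chromosome 2 and 5.52% on chromosome 3 below it (7.90% and 7.09% seen).

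Chromosome 19 stood lowest also among regions of like pileup. In the lowest pileup quintile, 18 of its 177 shared regions were siCHD5/siNC-only (10.2%), against 25.1% over all chromosomes and 33.1% on chromosome 13. The 28 members of chromosome 19 had median folds of 5.59 in siCHD5 and 4.90 in siNC, against 5.35 and 4.55 in the same lists over all members. The other 4 lists lacked fewer of its shared regions than on all chromosomes together. The shares lacking were 23.9% in siCHD3 (30.3% on all chromosomes) and 31.5% in siCHD4 (35.5% on all chromosomes). They were 19.2% in siMBD2 (22.8% on all chromosomes) and 22.3% in siMBD3 (29.0% on all chromosomes). This was not particular to chromosome 19. On chromosome 22 the shares lacking were 23.3% in siCHD3, 30.1% in siCHD4, 18.5% in siMBD2 and 19.6% in siMBD3. There 4.80% of the shared regions were siCHD5/siNC-only. Peaks were denser on chromosome 19, with a median of 29 other siNC peaks within 500 kb against 15 over all shared regions, and the part of density in its low share was not tested. With lists of equal length, where 2.52% of shared regions met the rule, the difference from all chromosomes was −0.763 percentage points on chromosome 19 (interval −1.58 to 0.466), 1.51 on chromosome 13 (−0.0739 to 3.71) and 2.03 on chromosome 18 (0.100 to 4.76). The intervals for chromosomes 19 and 13 then hold 0. With the lists as deposited it was −3.74 on chromosome 19, 3.88 on chromosome 13 and 3.80 on chromosome 18. On chromosome 18 the shares lacking were 43.6% in siCHD3, 45.7% in siCHD4, 29.9% in siMBD2 and 41.2% in siMBD3. Chromosomes 4, 13 and 18 together had 215 members of 2472 shared regions (8.70%, interval 7.62 to 9.88), and chromosomes 16, 17 and 22 had 165 of 2648 (6.23%, 5.34 to 7.22). Chromosome 4 alone had 94 of 1324 (7.10%, 5.78 to 8.62), and its interval held the 6.69% over all chromosomes.

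**Figure D5:**
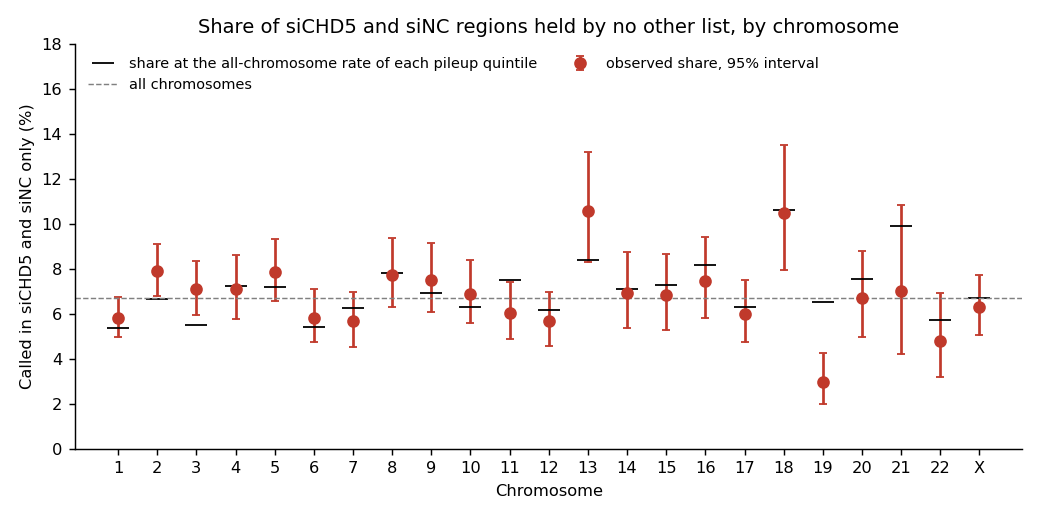
Share of shared regions that were siCHD5/siNC-only (y axis, percent) on each chromosome (x axis), as red points with exact 95% intervals. Black dashes give the share each chromosome would have at the all-chromosome rate of each siNC pileup quintile, and the grey line the share over all chromosomes, 6.69%. Chromosomes 13 (10.6%) and 18 (10.5%) are highest and chromosome 19 (2.96%) is lowest.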

How the data were processed

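The 6 conditions were compared through 1 deposited peak list each, in the MACS2 narrow-peak layout. Per the peak names in the deposited files, 3 replicates were called together, treatment against control. Per the submitters' processing notes, the build was hg19, and the tools named were MACS2 2.1.2, Bowtie2 2.3.4, SAMtools 1.9, FastQC 0.11.7, deepTools 3.5.0 and bedtools 2.25.0. Their roles and settings are not given in the sources used here. For each peak the authors deposited a fold enrichment (a ratio of pileup to background), its −log10 q-value, its −log10 p-value and the offset of its summit, which is another number. The display score was not used. Positions are hg19, 1-based. No genome or annotation of hg19 was used here, so genes, motifs and sequences are not reported.

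Where several summits shared 1 peak, the one of highest fold stood for it. Peaks were joined with bedtools 2.31.1 (touching peaks included). Each peak's background and pileup were solved on the premise that 1 is added to both before their ratio is taken as fold, and that p is the Poisson probability of a larger pileup. An integer solution within 0.01% of the deposited −log10 p existed for 100% of peaks, and after shuffling p among peaks for at most 1.87%. Depth per sample was not used here. The lists' most common background, held by 926 to 4658 peaks, stood for coverage. The computations were tested on simulated data. Python 3.11.15, numpy 2.4.6, scipy 1.17.1 and pandas 2.3.3 were used. Members, rules for named regions (leading ones by rank, fold, ratio, width, chance of a call and clustering) and alternatives were chosen with earlier results of these data known.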

Additional observations from a re-analysis of the deposited data

Results flagged for a closer look

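Contigs other than chromosomes 1 to 22 and X were left out of the comparisons, and the regions called there are listed for that reason. They held 1253 merged regions, of which 448 were called in siCHD5 and siNC. Of these, 6 met the same rule, on 6 different contigs. That is 1.34% (exact 95% interval 0.493 to 2.89), against 6.69% on chromosomes 1 to 22 and X. The difference was not tested.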

How the results depend on the processing

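No paired analysis was possible because each list pools its replicates. For the same reason no replicate could be left out. Of the 15 alternatives, 11 kept the number of members within 1.5 times of 1901. The number was 5371 where all 6 lists were held to a −log10 q of 10 or more, 658 with that threshold in siCHD5 and siNC only, 554 with lists of equal length and 3075 without siMBD2. A threshold in all lists also removes weak peaks of the other 4, which makes members of more regions. The percent of shared regions was 10.3 where every list was held to 5 or more and 23.1 where to 10 or more, 5.70 and 2.82 with these thresholds in siCHD5 and siNC only, 2.52 with equal length, and 6.40 with no other peak within 1 kb. It was 9.34 without siCHD3, 8.54 without siCHD4, 10.8 without siMBD2 and 9.46 without siMBD3. The median siCHD5 fold was 5.69 (5 in all lists), 6.64 (10 in all), 5.67 (5 in siCHD5 and siNC only), 6.36 (10 in these), 6.42 (equal length) and 5.48 (without siMBD2). The median siNC fold was 4.81, 5.33, 4.72, 5.08 and 5.42 under the first 5 of these, 4.63 without siMBD2 and 4.64 without siCHD4. The median distance to the other lists was 24799 bp (5 in all), 37912 bp (10 in all), 16700 bp (10 in siCHD5 and siNC only), 20418.5 bp (equal length), 21710.5 bp without siCHD3 and 20121.5 bp without siCHD4. The causes were not tested. The differences of 4 chromosomes from all, added after the data were seen, kept their sign under the 15 alternatives, but not all of their intervals left out 0. For chromosome 22 the interval held 0 with the lists as deposited (−3.51 to 0.219). For the others it held 0 on chromosomes 13 and 19 with lists of equal length, and on chromosomes 13 (−0.365 to 3.29) and 18 (−0.259 to 4.08) with a −log10 q of 10 or more in siCHD5 and siNC only.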
